A study of Sus scrofa with 20 samples.

Results

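The expression of 9 genes that mark developing red blood cells was followed through the pig libraries: the transcription factors GATA1, KLF1 and GFI1B, the haem enzyme ALAS2, the haemoglobin chaperone AHSP, the membrane proteins SLC4A1, EPB42 and RHAG, and the nuclear protein HEMGN. They were chosen by symbol, and all 9 had a row among the 25764 rows of the expression table. The study isolated porcine biliary tree stem cells (pBTSCs) from the gallbladder and extrahepatic bile ducts of newborn piglets and sequenced poly(A) RNA of these cells and of cells sorted from pig liver. The 20 libraries are compared here as normalized counts. The 5 pBTSC libraries (S2, S7, S11, S15 and S20 by the number in their titles) were labelled as gallbladder cells. They came from freshly isolated, immunoselected cells kept for hours in serum-free Kubota's medium, and the study lists H2B-GFP piglets, which carry a fluorescent histone transgene, for S2, S7 and S11 and wild-type piglets for S15 and S20, all newborn. The 15 liver libraries were sorted on surface antigens: 5 were CD45+, 4 CD45-/EpCAM+, 2 CD45-/EpCAM-, 2 CD31+ and 2 CD146+. The liver libraries fall into those numbered S3 to S14 (8 libraries, called S3-S14) and those numbered S16 to S23 (7 libraries, called S16-S23). The labels do not give the piglet, line or age behind a liver library.

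Red blood cells form from committed precursors in the fetal and newborn liver and later in the bone marrow. GATA1, with partners such as KLF1 and GFI1B, switches on the genes of the lineage, and the precursors then fill with haemoglobin while they build the membrane skeleton of the red cell. ALAS2 catalyses the first step of haem synthesis in these cells, AHSP holds free alpha globin in solution, SLC4A1 (band 3) exchanges chloride for bicarbonate, EPB42 (protein 4.2) links band 3 to the skeleton, RHAG carries the Rh complex, and HEMGN is a nuclear protein of haematopoietic precursors.

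Of the libraries, 3 had under 2000000 estimated reads: S15 of the pBTSCs with 1566890, S13 of the CD45-/EpCAM+ cells with 801423 and S22 of the CD146+ cells with 454556. One read was worth 12.6, 25.7 and 52.2 normalized counts in these, so a value of 0 there allowed up to 37.7, 77.1 and 156 normalized counts, against at most 4.28 in the other 17. The sort antigens did not separate the liver sorts: PTPRC, which encodes CD45, ranged from 424 to 2687 in CD45+ libraries and from 450 to 3027 in CD45-/EpCAM+ libraries, and EPCAM ranged from 1175 to 2232 in CD45+ libraries and from 1205 to 1779 in CD45-/EpCAM+ libraries. ALB, the hepatocyte product albumin, was between 513084 and 1789960 in every liver library and between 287 and 25087 in the pBTSCs. The pBTSC libraries held EPCAM at 884 to 2075, PTPRC at 534 to 2140 and the endothelial PECAM1 at 28048 to 36576, so transcripts of blood and vessel cells were present there too. The liver numbers form 5 runs, each after 1 pBTSC library: S3 to S5, S8 and S9, S12 to S14, S16 to S19, and S21 to S23. The runs of S3-S14 follow the pBTSC libraries listed as H2B-GFP, and the runs of S16-S23 follow those listed as wild-type. If liver libraries share the line of that pBTSC library, which the labels do not state, the split cannot be told apart from line. Over 11861 genes, the median absolute log2 difference between 2 libraries was 0.0697 to 0.0938 within the runs of S16-S23 and 0.138 to 0.192 between them, 0.170 to 0.570 within the runs of S3-S14 and 0.219 to 0.616 between them, and 0.328 to 0.827 across the split, shallow libraries left out. Libraries of a run were thus closer to each other than to other runs in S16-S23, whatever their sort, while in S3-S14 the ranges overlapped. The labels do not state whether libraries of a run share a source, in which case p-values over single libraries would be too small. All p-values here measure the spread between libraries, which may be technical.

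By the median over deep libraries, those with at least 2000000 reads, all 9 genes followed the same order in liver. They were highest in the CD45-/EpCAM- libraries S5 and S14, intermediate in the other S3-S14 libraries and lowest in S16-S23. The pBTSC medians lay between those of S16-S23 and of CD45-/EpCAM- cells for all 9, above the other S3-S14 libraries for ALAS2, AHSP and EPB42 and below them for the other 6. The 9 genes summed to 51584 and 17203 normalized counts in S5 and S14, to between 1010 and 4901 in the other 6 libraries of S3-S14, to between 189 and 230 in S16-S23, and to between 1139 and 4989 in the pBTSCs. In bulk RNA, fewer cells of a type and less RNA per cell cannot be told apart.

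GATA1, the factor that defines the lineage, was 1267 and 610 normalized counts in the CD45-/EpCAM- libraries S5 and S14. It was 89.6, 97.6 and 80.1 in the CD45+ libraries S3, S8 and S12 and 68.3, 141 and 77.1 in the CD45-/EpCAM+ libraries S4, S9 and S13. In S16-S23 it was 6.45 and 3.81 in CD31+, 4.67 and 0 in CD146+, 8.65 and 6.31 in CD45+ and 4.24 in CD45-/EpCAM+ cells, where the 0 was the shallow S22. The S3-S14 libraries did not overlap S16-S23. In the pBTSCs GATA1 was 15.6, 69.5, 24.2, 12.6 and 32.6 in S2, S7, S11, S15 and S20, where the value of S15 is 1 read.

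KLF1, which activates the adult beta globin gene, was 1401 and 848 in S5 and S14. It was 27.1, 60.4 and 40.4 in the CD45+ libraries of S3-S14 and 50.4, 207 and 0 in the CD45-/EpCAM+ ones. The 0 is the shallow S13, where 3 reads are worth 77.1. All 7 libraries of S16-S23 lay between 0 and 1.35, and none of them held more than about 3 reads. The pBTSCs held 19.5, 69.0, 27.4, 0 and 27.8, the 0 again in the shallow S15. GFI1B, a repressor that acts with GATA1 in red cell and platelet precursors, was 395 and 213 in S5 and S14. In the other deep S3-S14 libraries it was between 27.5 and 56.4, and the shallow S13 held 129, about 5 reads. GFI1B was between 0 and 4.58 in S16-S23 and between 0 and 25.3 in the pBTSCs. For both genes the deep libraries of S3-S14 and S16-S23 did not overlap.

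ALAS2 was the member whose median in pBTSCs was highest relative to the S3-S14 libraries outside CD45-/EpCAM-. It was 628, 1812, 1541, 859 and 2730 normalized counts in S2, S7, S11, S15 and S20. In the CD45+ libraries of S3-S14 it was 240, 332 and 240, and in the CD45-/EpCAM+ ones 358, 888 and 459. Of the pBTSC libraries, S7, S11 and S20 lay above all 6 of these liver libraries, and S2 and S15 lay below S9 and above the other 5. In S5 and S14 ALAS2 was 11367 and 3372, above every pBTSC library, and in S16-S23 it was between 31.3 and 171, the highest being about 3 reads of the shallow S22. AHSP was 7664 and 1583 in S5 and S14, between 82.2 and 278 in the other S3-S14 libraries and at most 4.84 in S16-S23. It was 67.1, 300, 159, 37.7 and 153 in the pBTSCs, which overlapped the S3-S14 libraries outside CD45-/EpCAM-.

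Of the membrane genes, SLC4A1 was 15882 and 5229 in S5 and S14, between 232 and 1655 in the other S3-S14 libraries and at most 25.2 in S16-S23. It was 251, 1463, 308, 25.2 and 297 in the pBTSCs. EPB42 had the smallest contrast: 2092 and 712 in S5 and S14, 67.0 to 227 in the other S3-S14 libraries, 29.1 to 53.8 in S16-S23 and 74.2 to 315 in the pBTSCs. RHAG was 607 and 260 in S5 and S14, 18.9 to 92.7 in the other S3-S14 libraries, 0 to 3.61 in S16-S23 and 0 to 72.4 in the pBTSCs. HEMGN, whose product is nuclear, was 10909 and 4376 in S5 and S14, 221 to 1355 in the other S3-S14 libraries, 130 to 864 in the pBTSCs and 74.5 to 88.7 in the deep libraries of S16-S23. S7 was the highest pBTSC library for 8 of the 9 genes, all but ALAS2, for which it was S20. The share of all genes highest in S7 was not counted.

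**Figure D1:**
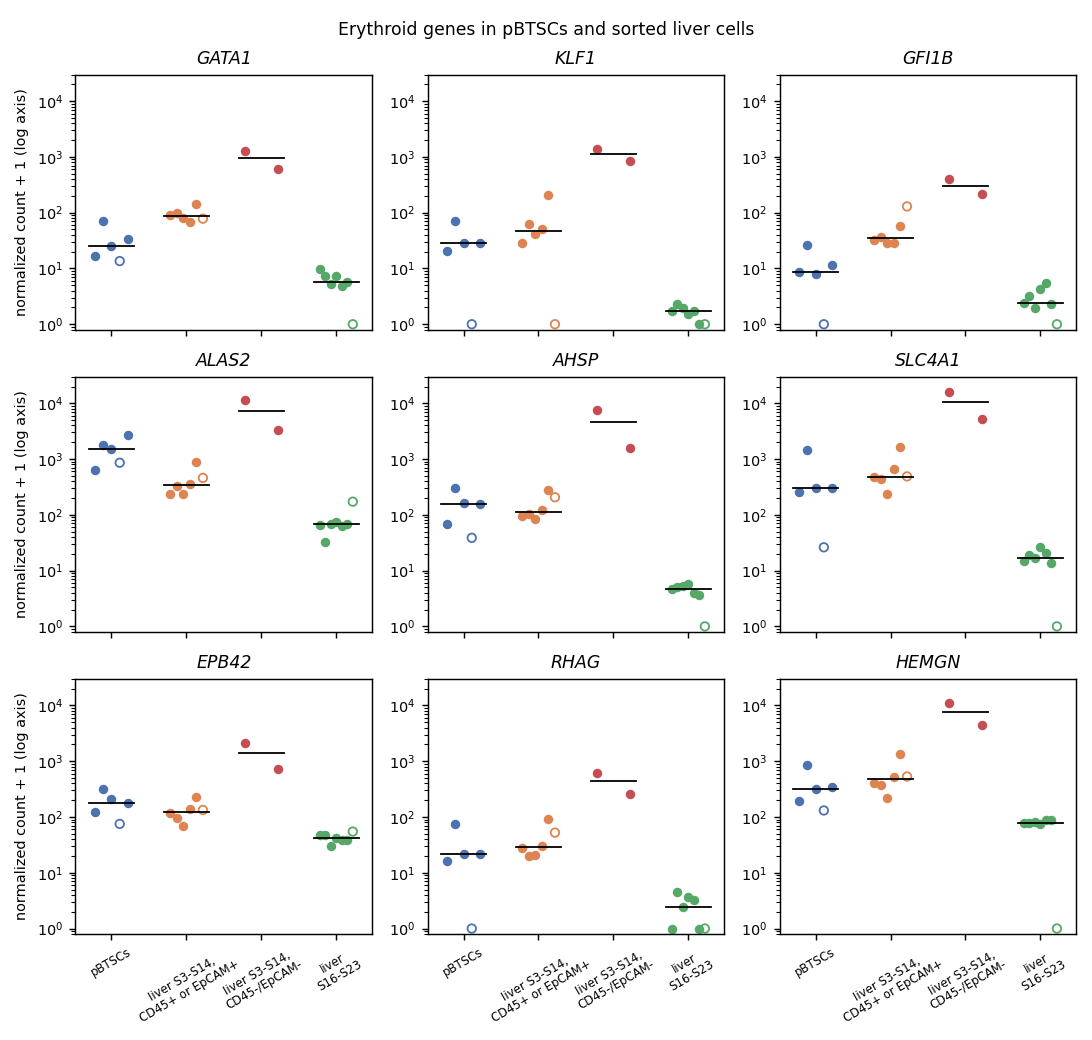
Normalized count plus 1 (log axis) of each erythroid gene in each library, with libraries as points, shallow libraries as open points and the median of each set as a line. The CD45-/EpCAM- libraries are the highest for every gene (ALAS2 at 11367 and 3372) and, among deep libraries, those of S16-S23 are the lowest (AHSP at most 4.84).

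By group as labelled, the mean of GATA1 was 938 ± 465 (SD, n = 2) in CD45-/EpCAM- cells, 72.7 ± 56.0 (n = 4) in CD45-/EpCAM+ cells, 56.4 ± 45.1 (n = 5) in CD45+ cells, 30.9 ± 22.9 (n = 5) in pBTSCs, 5.13 ± 1.87 (n = 2) in CD31+ cells and 2.34 ± 3.30 (n = 2) in CD146+ cells. The middle 3 groups overlapped each other. Within a sort the values followed the split of the title numbers, as GATA1 was 89.1 ± 8.78 (n = 3) in CD45+ cells of S3-S14 and 7.48 ± 1.66 (n = 2) in those of S16-S23. Between CD45+ and CD45-/EpCAM+ liver cells, 0 of 9 members passed the test, and so did 0% of the 15576 genes tested. There 214 genes and 0 of the 9 members had an unadjusted p under 0.05 in limma. The 2 sorts can also be paired within runs, as S3 with S4, S8 with S9, S12 with S13 and S18 with S19, an analysis added after the values were seen. AHSP, ALAS2, SLC4A1, RHAG and HEMGN were higher in the CD45-/EpCAM+ library of all 4 pairs, and GATA1 in 1. The share of all genes higher in all 4 was not counted. In S19 against S18 the differences of the 5 were small, from 0.633 normalized counts for AHSP to 4.10 for ALAS2. The shallow S13 held 8 AHSP reads and 2 RHAG reads. With the run as a covariate again 0 of 9 members and 0% of genes passed, with adjusted p from 0.702 to 0.858 in limma, and 5 members and 1025 of 15547 genes had an unadjusted p under 0.05.

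The split among liver libraries held for every member. In limma on log2(normalized count + 1), where a call needed an adjusted p below 0.05 and a change of more than 1 log2 unit either way, all 9 members were higher in S3-S14 than in S16-S23, against 5.32% of 15566 genes. SLC4A1 rose by 6.53 ± 0.88 (log2, SE, adjusted p = 8.94e-05 in limma), AHSP by 6.33 ± 0.86 and KLF1 by 5.58 ± 1.14, and the members with the smallest changes were EPB42 at 2.36 ± 0.59 (adjusted p = 0.00607) and ALAS2 at 3.45 ± 0.73. The median over the members was 4.98, beside 0.01 over all genes tested. Values of the 2 sets of libraries did not overlap for 8 of the 9 members, against 7.97% of 15576 genes that were higher without overlap, and KLF1 was the exception through the shallow S13. Without the shallow libraries none of the 9 overlapped, against 13.8% of the genes. An exact permutation test over the 15 libraries gave a two-sided p of 0.000311, the smallest that the assignments can give, for each of the 8 that did not overlap, and 0.00249 for KLF1. The test takes libraries of a run as independent. The split and the members were chosen with earlier results of these data known, so these p-values are no separate support.

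The split and the sorts overlap, since CD45-/EpCAM- libraries stand only in S3-S14 and CD31+ and CD146+ libraries only in S16-S23. With the sort as a covariate, 7 members were called, against 1.42% of genes, and the median fold change over the members was 3.80. HEMGN, at 2.50 ± 1.02 (adjusted p = 0.150), and KLF1, at 4.03 ± 1.23 (adjusted p = 0.0675), did not pass. On the 9 libraries of the 2 shared sorts, 8 members were called (2.06% of genes), and KLF1 was not. Within CD45+ cells alone, AHSP at 4.27 ± 0.44, GATA1 at 3.42 ± 0.44 and SLC4A1 at 4.46 ± 0.56 were called, against 0.206% of genes. Within CD45-/EpCAM+ cells, AHSP at 5.20 ± 0.55 and SLC4A1 at 5.61 ± 0.71 were called, against 0.0836%, and this rests on 1 library of S16-S23, assumed to vary like the others. All 9 fold changes were positive in both sorts, where the median over all genes was -0.00193 in CD45+ and -0.0429 in CD45-/EpCAM+ cells. The difference between the effects in both sorts was tested as an interaction in limma and passed for 0% of genes and for none of the members. EPB42 was the 1 member at an unadjusted p under 0.05 there, as were 67 of 15557 genes.

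The comparison was repeated with the runs of title numbers in place of single libraries. With the run as a block, 8 members were called (3.18% of genes), all but EPB42, which was 2.32 ± 0.88 (adjusted p = 0.0787). On the means of the 5 runs, 3 against 2, again 8 members were called, against 0.559% of genes, with EPB42 at an adjusted p of 0.0737. Mean log2 values of AHSP were 8.80, 7.41 and 8.23 in the runs of S3-S14 and 2.25 and 1.45 in the runs of S16-S23, so the runs did not overlap. With 5 runs the design cannot reach an exact permutation p below 0.20.

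**Figure D2:**
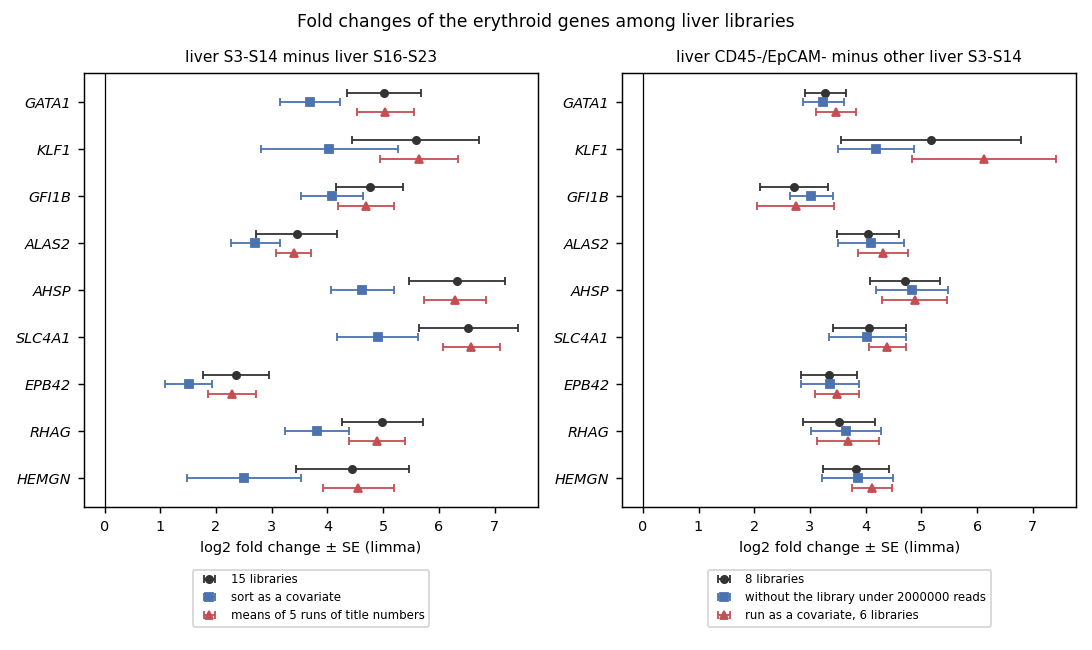
Log2 fold changes with SE from limma for each erythroid gene, on the left for liver S3-S14 against S16-S23 over 15 libraries, with the sort as a covariate and over the means of 5 runs, on the right for CD45-/EpCAM- against the other S3-S14 libraries under 3 fits. All values are above 0, from 1.51 for EPB42 with the sort as a covariate to 6.58 for SLC4A1 on run means.

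The second contrast was between the CD45-/EpCAM- libraries and the other S3-S14 libraries. The libraries labelled CD45-/EpCAM-, in which PTPRC was 1317 and 2850 and EPCAM 1090 and 491, held the highest values of all 9 genes, and the median over deep libraries was 45.0 times that of the other sorts for AHSP, 22.3 times for KLF1, 22.2 times for ALAS2 and 9.53 times for GFI1B. All 9 lay without overlap above the other 6 libraries, as did 6.29% of genes. In limma over the 8 libraries the fold changes ran from 2.71 ± 0.61 for GFI1B to 5.17 ± 1.61 for KLF1, but 0 of 9 passed, with adjusted p from 0.0518 to 0.167. Of all genes, 0.00644% passed as higher. At an unadjusted p under 0.05 were all 9 members and 2491 of 15540 genes. Without the shallow S13, all 9 passed, against 0.501% of genes, with adjusted p from 0.0370 to 0.0446.

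The comparison can also be made within runs, since S5 stands with S3 and S4 and S14 with S12 and S13. With the run as a covariate, 7 members were called (0.483% of genes), and KLF1 at 6.12 ± 1.29 (adjusted p = 0.0895) and GFI1B at 2.75 ± 0.69 (adjusted p = 0.118) were not. Without S13, all 9 were called in the same fit (2.83% of genes), led by AHSP at 5.34 ± 0.39. S5 exceeded S14 for all 9 genes, while the share of all genes that did so was not counted. All rows together summed to 30268300 normalized counts in S5 and 22627200 in S14. Beside these values, the 8 granulocyte genes summed to 63779 and 17436 normalized counts in S5 and S14 and to between 1712 and 13713 in the other S3-S14 libraries, and the proliferation gene MKI67 was 7645 and 10736 against 1056 to 8998. Their part in the result was not tested.

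The pBTSCs were compared with each liver sort, without pairing a pBTSC library with the run numbered after it. Below the CD45-/EpCAM- cells, 8 of the 9 members were called lower, against 16.6% of genes, and all 9 lay without overlap below them, as did 30% of genes. The largest differences were KLF1, which fell by 6.06 ± 1.91, GFI1B, which fell by 5.32 ± 1.46, and SLC4A1, which fell by 5.22 ± 1.76 on the log2 scale. ALAS2 was at -2.22 ± 0.94 with an adjusted p of 0.0576. Without S5, which leaves S14 alone in its group, assumed to vary like the others, 0 of 9 were called, while all 9 stayed negative with a median of -4.20 against -4.93.

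Against the other sorts between 1 and 5 members passed. Against CD45-/EpCAM+ cells 1 member was called higher (14.8% of genes), and against CD45+ cells 1 (11% of genes), in both cases ALAS2, at 2.07 ± 0.75 and 3.33 ± 0.71. Without S19, the 1 CD45-/EpCAM+ library of S16-S23, ALAS2 was no longer called against that sort and GFI1B was called lower. Against CD31+ cells AHSP, ALAS2 and EPB42 were called higher (6.73% of genes). Against CD146+ cells 5 members were called, AHSP, ALAS2, GATA1, SLC4A1 and HEMGN (14.5% of genes), and 1, ALAS2, without the shallow libraries. CD146+ is then S17 alone, and the median over the members was 4.43 against 3.83. Over all 15 liver libraries together, ALAS2 was 2.42 higher on the log2 scale with a two-sided exact permutation p of 0.0442, and the other 8 members had p between 0.386 and 0.907. Without the shallow libraries the ALAS2 difference was 2.60, with an exact permutation p of 0.0681.

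Since the split runs through 2 of the sorts, the pBTSCs were also set against each side of it, a comparison added after the values were seen. Against S16-S23, 8 members were called higher (12.2% of genes), with AHSP at 4.93 ± 0.92, SLC4A1 at 4.36 ± 1.04 and ALAS2 at 4.26 ± 0.77, and GFI1B, at 1.48 ± 0.76, did not pass. Against S3-S14, 2 members were called lower (13.2% of genes): GFI1B fell by 3.28 ± 0.74 (adjusted p = 0.000811) and GATA1 by 2.59 ± 0.69 (adjusted p = 0.00344). GFI1B was 0 in the shallow S15, and without the shallow libraries the largest fall of any member was 2.49. Without the CD45-/EpCAM- libraries, 3 were called, against 28.3% of genes in either direction. These were ALAS2, higher at 1.82 ± 0.42, and GATA1 and GFI1B, which fell by 1.77 ± 0.52 and 2.60 ± 0.68. The share of members called there was near that of all genes. The 3 comparisons share the pBTSC libraries, and none pairs a pBTSC library with the run numbered after it.

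**Figure D3:**
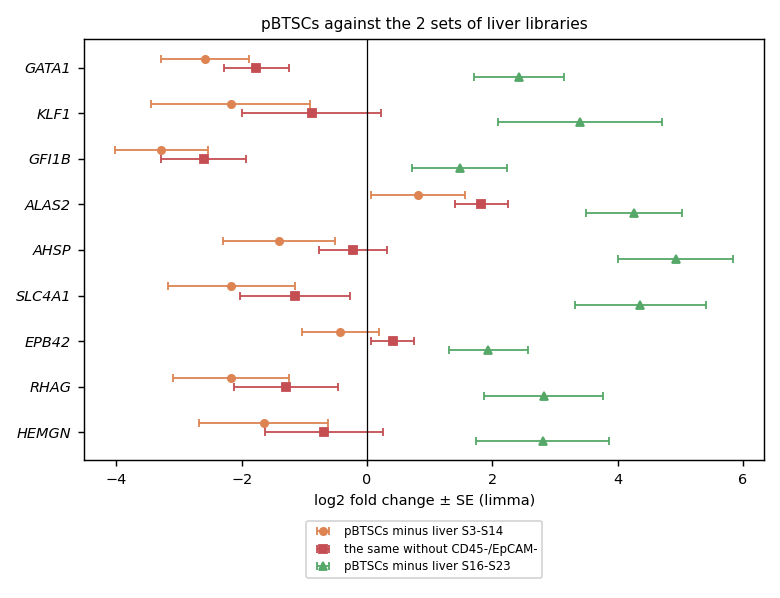
Log2 fold changes with SE from limma for each erythroid gene in pBTSCs against liver S3-S14, against the same without the CD45-/EpCAM- libraries, and against liver S16-S23. All 9 values against S16-S23 are above 0, and against S3-S14 all but ALAS2, at 0.81, are below 0.

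Some proportions of the members to each other also differed between pBTSCs and liver. The pattern was chosen after the values were seen and is given without a test. Transcript length cancels when 1 ratio is compared across libraries only where the RNA was equally intact. The study lists unequal RNA integrity among the pBTSC samples and lists none for the liver libraries. The ratio of ALAS2 to GATA1 normalized counts was 26.1 to 83.7 in the 4 deep pBTSC libraries, 2.67 to 8.97 in the 8 libraries of S3-S14 and 4.96 to 16.2 in the 6 deep libraries of S16-S23, where it rests on 5 to 14 GATA1 reads. The pBTSC range lay above both liver ranges. The ratio of AHSP to GATA1 was 4.29 to 6.55 in pBTSCs, 1.03 to 6.05 in S3-S14 and 0.417 to 1.0 in S16-S23. EPB42 to GATA1 was 4.53 to 8.49 in pBTSCs and 5.41 to 9.71 in S16-S23, but 0.838 to 1.98 in S3-S14. By contrast, HBB, the beta globin gene, kept a similar ratio to ALAS2, at 45.8 to 51.3 in the deep pBTSC libraries, 45.2 to 74.0 in those of S3-S14 and 22.1 to 46.2 in those of S16-S23. GFI1B to GATA1 was 0.289 to 0.479 in pBTSCs and 0.312 to 0.402 in the deep libraries of S3-S14. It was 0.357 to 1.20 in the 3 libraries of S16-S23 with a value, on 5 to 6 GFI1B reads. The other members also had higher medians over GATA1 in pBTSCs than in S3-S14. These were 12.4 against 7.04 for HEMGN, 14.4 against 7.45 for SLC4A1, 0.927 against 0.427 for RHAG and 1.06 against 0.738 for KLF1.

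**Figure D4:**
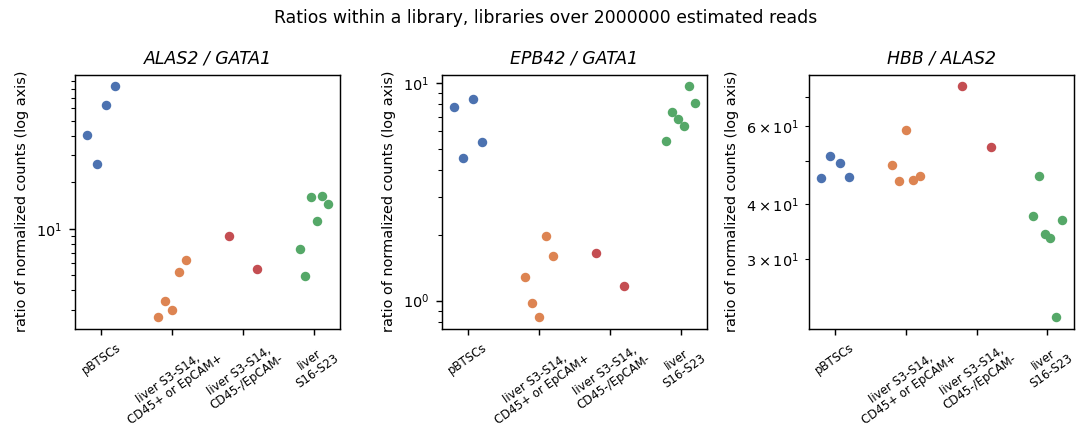
Ratio of normalized counts of 2 genes within each library with at least 2000000 estimated reads (log axes), by set. ALAS2 over GATA1 is highest in the pBTSCs (26.1 to 83.7), EPB42 over GATA1 is lowest in S3-S14 (0.838 to 1.98), and HBB over ALAS2 differs least between the sets.

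Other genes of the red cell programme moved with the members to unequal degrees in S3-S14 against S16-S23. Of the red cell membrane and skeleton list, 9 of 17 genes rose and 0 fell, among them RHCE at 5.65, ADD2 at 4.72 and ERMAP at 4.47 on the log2 scale. RHCE has a near-identical relative in many species, so its reads may be divided uncertainly. Of the 5 globins tested, HBM at 5.66, HBB at 4.30 and HBQ1 at 2.43 rose and 0 fell. The median over the membrane list was 2.02 and over the globins 2.43, beside 0.01 over all genes, of which 5.32% rose. With the sort as a covariate 5 membrane genes and 2 globins, HBM at 4.43 and HBB at 3.01, rose.

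Of the transcription partners, 3 of 12 rose: NFE2 at 4.10, MYB at 4.07 and E2F2 at 1.51, with a list median of 0.18. TAL1, which forms a complex with GATA1, was between 67.7 and 355 in S3-S14 and between 69.3 and 154 in the deep libraries of S16-S23. Of the haem synthesis and iron import genes, 2 of 11 rose, among them UROD at 1.08, with a median of 0.49. Of the late red cell enzymes and remodelling genes, 7 of 21 rose, with TRIM58 at 4.65, YPEL4 at 3.62, BLVRB at 1.75 and UCP2 at 1.49. With the sort as a covariate, 1 of the partners rose, MYB at 2.74, 0 of the haem genes did, and of the late genes 2 rose, TRIM58 at 3.10 and BLVRB at 1.41, and 1 fell, CAT at -1.05. Many genes of these last lists are also used by other cells.

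Among the hormone, growth factor and iron receptor genes, 2 of 12 rose and 1 fell. EPO, the hormone that drives red cell formation, rose by 3.61 ± 0.68 on the log2 scale. It was between 25.7 and 55.5 normalized counts in the 8 libraries of S3-S14, at most 3.05 in the deep libraries of S16-S23 and at most 0.26 in the pBTSCs, and the shallow S13 and S22 held 1 read each. ERFE, the erythroblast hormone that lowers hepcidin, rose by 1.74, and KITLG, which encodes stem cell factor, fell by 1.48. With the sort as a covariate EPO rose by 4.10, KITLG and TFRC, the transferrin receptor, fell by 1.14 and 1.49, and ERFE did not pass. EPOR, the receptor of EPO, was 901 and 605 in S5 and S14, 78.5 to 448 in the other S3-S14 libraries, 171 to 185 in the deep libraries of S16-S23 and 0 to 26.1 in the pBTSCs.

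Genes listed as markers of other cell types moved along the same split. All 8 granulocyte genes rose in S3-S14, led by PRTN3 at 8.68, AZU1 at 7.82, MPO at 7.77 and ELANE at 6.90, and their sum was 1712 to 63779 there, 194 to 336 in S16-S23 and 126 to 7239 in the pBTSCs. Of the megakaryocyte and platelet genes, 4 of 12 rose and 1 fell, including TREML1 at 2.37, GP1BA at 2.02, RAB27B at 1.63 and MMRN1 at -1.33. MS4A2 at 2.26 and HDC at 1.53 were the 2 of 5 mast cell genes that rose. CD34, MECOM and PROM1 were the 3 of 6 stem and progenitor genes that fell, at -1.70, -1.54 and -1.15. Genes of this list may also be used by cells other than blood cells, and CD34 was highest in the pBTSCs, at 4931 to 7867. Of 11 macrophage genes MARCO rose, at 1.30, of 7 proliferation genes AURKB, at 1.09, and of 8 hepatocyte genes AFP, a fetal liver protein, at 6.54. TEK, PECAM1 and CDH5 fell among 8 endothelial genes, at -1.42, -1.20 and -1.05, and PECAM1 was also the 1 of 4 sort antigens to fall. With the sort as a covariate all 8 granulocyte genes still rose, as did AFP, RAB27B and PPBP, while MMRN1, MECOM and the hepatocyte gene TTR fell, and 0 genes of the mast cell, macrophage, proliferation, endothelial and sort antigen lists passed. AFP was 65022 to 176993 in S3-S14 and 914 to 2034 in S16-S23. The part of these cell types in the result was not tested.

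The members rose and fell together. Across the 17 deep libraries the 36 pairs of members had Pearson correlations of log2 values between 0.795 and 0.988, with a median of 0.953. These libraries share the split and the runs, so the correlations are a description. Among the 10 other named genes whose pattern was most like the mean of the members were NFE2 (r = 0.992), KEL (0.991), RHCE (0.991), TRIM58 (0.989), ADD2 (0.988), ATP4B (0.982), TNNI1 (0.979), HBM (0.978) and TSPAN32 (0.976). NFE2 was 2086 and 664 in S5 and S14, 57.2 to 208 in the other deep S3-S14 libraries and 5.30 to 11.9 in the deep libraries of S16-S23. ATP4B, which encodes a subunit of the gastric proton pump, was 352 and 92.7 in S5 and S14 and at most 26.7 elsewhere. TNNI1, a slow skeletal muscle troponin, was 660 and 72.5 there and at most 36.3 elsewhere.

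**Figure D5:**
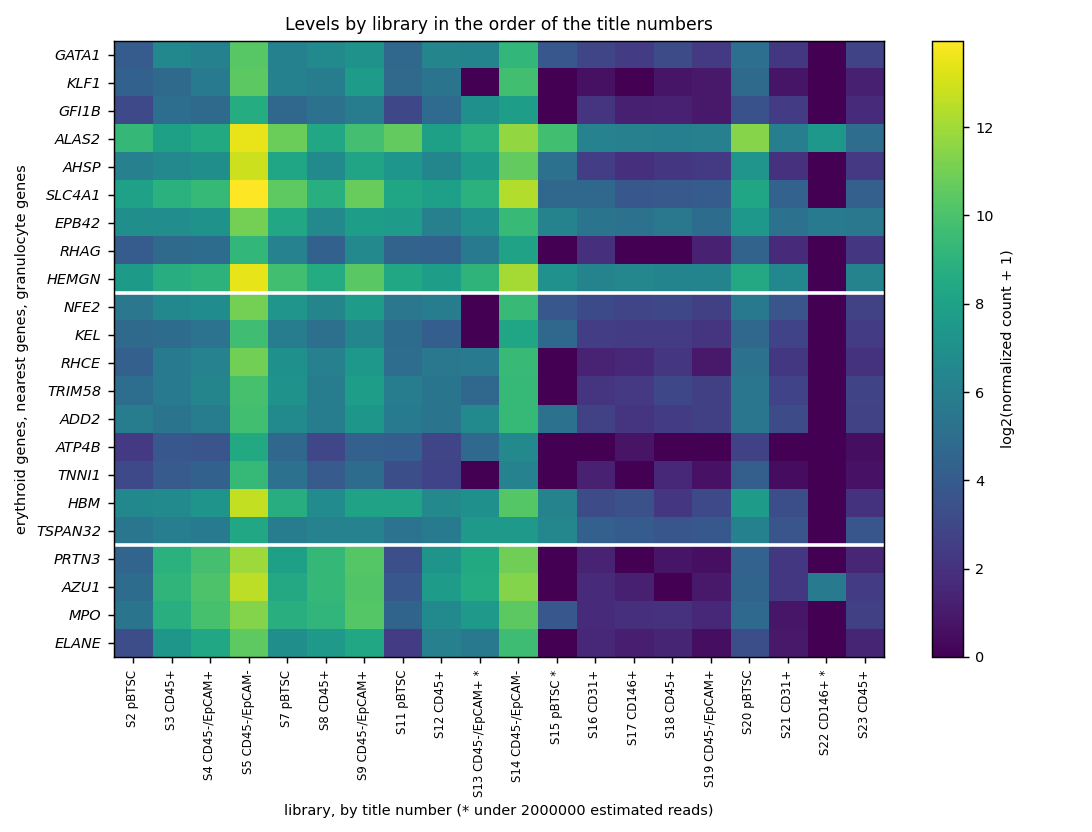
Level, as log2(normalized count + 1), of the 9 erythroid genes, 9 of the 10 genes most like them and 4 granulocyte genes in each library in the order of title numbers. The colour peaks at S5 (SLC4A1 at 15882) and S14 and is lowest in the liver libraries from S16 on, while the pBTSC libraries S7 and S20 keep intermediate levels.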

How the data were processed

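Poly(A) RNA of 5 pBTSC and 15 sorted liver libraries was sequenced by the authors, who deposited 1 table of normalized counts (a signal per gene, scaled between libraries). The submitters' processing notes name STAR, Salmon and DESeq2 without versions, and the genome build is not given in the sources used here. One read's worth in each library was estimated from steps between low values, of which 60.4% to 84.3% lay within 0.05 of whole reads. Depths are therefore estimates: 17 libraries held 21235300 to 77845100 estimated reads and 3 held under 2000000. Values at 0 were bounded at 3 reads, which covers counting error only.

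Genes with at least 10 normalized counts in 2 or more of the 20 libraries were tested with limma 3.58.1 (R 4.3.3, trend) on log2(value + 1), a scale that understates changes of low genes, with Benjamini-Hochberg adjustment over all genes tested. The 6 groups entered 1 fit for comparisons with pBTSCs. Exact permutation tests (two-sided) used Python 3.11.15. On simulated data for S3-S14 against S16-S23, 98% of 200 genes changed 8-fold were recovered among 15446, with 0 false calls. No other comparison was simulated, so this says nothing of those with fewer libraries. Named genes were all 9 members, in each marker list the called genes with the 4 largest changes and any marker a result turns on, and the 10 genes most correlated with the members' mean. Some genes that this rule names are not reported here. Of 184 list symbols, 157 had a row. The members, lists and the split of title numbers were chosen with earlier results of these data known. Alternatives were the pseudocount, scaling, filter, weights, covariates and left-out libraries. The runs of title numbers and pairs within them, the pBTSC comparisons with each side of the split and the tests within sorts were added after seeing the data.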

Additional observations from a re-analysis of the deposited data

Results flagged for a closer look

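KLF1 in the pBTSCs stood out for its lowest library. S15 held 0 normalized counts, far from the 19.5 to 69.0 of the other 4 libraries relative to their spread. In S15, 3 reads are worth 37.7 normalized counts, more than the 19.5 to 27.8 of S2, S11 and S20, so the 0 allows a level like theirs. Of 27 groups of values tested for a distant library, 1 was found, and chance gives about 1 in 20.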

How the results depend on the processing

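The call of all 9 members in S3-S14 against S16-S23 was kept when any 1 of the 15 libraries was left out (9 to 9), and its count stayed within 7 to 9 under every alternative run. For CD45-/EpCAM- against the other S3-S14 libraries, where 0 were called, the count was 7 with a pseudocount of 10, 6 with libraries rescaled to the same total, 5 with a filter of 50 in 3 libraries, 1 with robust moderation, 9 without the shallow library, 5 with all 20 libraries in 1 fit, 7 with the run as a covariate and 9 with the run and without the shallow library. Leaving out 1 library gave 0 to 9, with 9 without S13, 7 without S14 and 6 without S9.

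For pBTSCs against CD45-/EpCAM+ cells (1 called) the count was 0 with array weights and 3 with only the S3-S14 libraries of the sort (1 higher, 2 lower) or with only S19, its 1 library in S16-S23 (3 higher). It was 0 to 1 on leaving out a library (0 without S7, S11, S20 or S4, and without S19 the 1 is GFI1B, lower). Against CD45+ cells (1 called) it was 2 when rescaled to the same total, without the shallow libraries, or with only the 2 groups in the fit, 3 with array weights (all higher) or only S3-S14 libraries (1 higher, 2 lower) and 4 with only S16-S23 libraries (all higher), and 1 to 2 on leaving out a library (2 without S15 or S19). Against CD31+ cells (3 called) it was 1 with a pseudocount of 0.1 or no filter and 8 with array weights, and 0 to 3 on leaving out a library (0 without S21, and 1 without S2, S7, S11, S20 or S16). Against CD146+ cells (5 called) it was 0 with array weights and 1 without the shallow libraries, and 1 to 8 on leaving out a library (1 without S22, 8 without S15). Against CD45-/EpCAM- cells (8 called) leaving out a library gave 0 to 9, with 0 without S5. Between CD45+ and CD45-/EpCAM+ cells it gave 0 to 0, and pairing by run, with or without the pair that holds S13, gave 0. The exact permutation test of pBTSCs against all liver libraries went from 1 member with p under 0.05 to 0 without the shallow libraries. EPB42 in pBTSCs against S3-S14 turned from -0.43 to 0.41 without the CD45-/EpCAM- libraries, with no call either way. The cause of these changes was not tested.

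Rescaling to the same total moved the median log2 fold change of all genes in the 5 pBTSC comparisons from between 0.04 and 0.18 to between 0.32 and 0.51. The split of higher and lower calls moved from 3114 and 2584 to 4643 and 1506 against CD45-/EpCAM- cells, from 2302 and 1603 to 3308 and 1237 against CD45-/EpCAM+, from 1716 and 1486 to 2434 and 1195 against CD45+, from 1049 and 1187 to 1624 and 998 against CD31+, and from 2255 and 1207 to 3150 and 983 against CD146+ cells. Replicate numbers only follow the order of the samples and were not used to pair libraries. Depth limits the 3 shallow libraries, where 0 allows up to 37.7, 77.1 and 156 normalized counts.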
